A study of Mus musculus with 11 samples.

Results

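Expression of 10 genes of the NF-kB inflammatory response was followed in mouse pancreatic islets: the cytokine genes Il1b, Il6, Tnf and Csf3, the chemokine genes Cxcl1, Cxcl2, Cxcl10 and Ccl2, and the feedback inhibitor genes Nfkbia and Tnfaip3. They were chosen by symbol, with no cutoff on their values, and all 10 were found among the 32285 genes of the count table and passed the filter on low counts, which 15093 genes passed. The islets came from 16-week-old mice labelled as lacking Zzef1 in beta cells (βZKO_Mip) and from their littermate controls, all on a high-fat diet for 4 weeks. Islets of 3 or more mice sharing a genotype made up a sample, which was kept for 24 h with 10 µM azoramide, a small compound that acts on the unfolded protein response, or with DMSO, its solvent. The 4 groups were control with DMSO (3 libraries), control with azoramide (3), labelled knockout with DMSO (2 libraries) and, for the same genotype, azoramide (3). The design asks whether azoramide changes islet gene expression and whether the Zzef1 genotype alters this.

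NF-kB is a family of dimeric transcription factors that inhibitor proteins hold in the cytoplasm of resting cells. Receptors for interleukin-1, tumour necrosis factor and microbial products activate a kinase complex that marks the inhibitor for destruction, and the freed dimer enters the nucleus and induces cytokine, chemokine and inhibitor genes. In islets, interleukin-1β and tumour necrosis factor are known to impair insulin secretion, and both the resident macrophages and the beta cells themselves can express NF-kB target genes.

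The proximal promoters are shown for the 6 members in which the binding motif of NF-kB was found, because these genes are grouped as targets of that factor. RefSeq promoters (GRCm38.p6) were at hand for 8 of the 10 members and not for Ccl2 and Csf3, and the search covered both strands of the 250 bases before each transcription start. A match to the kappaB consensus stood in 6 of these 8 genes, against 3.9% of the 32851 promoters in the table. The lines give the 250 bases 5′ to 3′ on the gene's own strand, with kappaB matches in capitals. Il6 is at chr5:30012864-30013113 on the plus strand, Cxcl1 at chr5:90890995-90891244 (plus), Cxcl2 at chr5:90903649-90903898 (plus), Cxcl10 at chr5:92348890-92349139 (minus), Nfkbia at chr12:55492648-55492897 (minus) and Tnfaip3 at chr10:19015411-19015660 (minus).
Il6: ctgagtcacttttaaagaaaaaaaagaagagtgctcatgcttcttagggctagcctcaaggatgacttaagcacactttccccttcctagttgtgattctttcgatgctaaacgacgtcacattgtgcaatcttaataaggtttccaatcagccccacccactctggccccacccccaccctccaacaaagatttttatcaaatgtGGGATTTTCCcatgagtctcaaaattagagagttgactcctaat
Cxcl1: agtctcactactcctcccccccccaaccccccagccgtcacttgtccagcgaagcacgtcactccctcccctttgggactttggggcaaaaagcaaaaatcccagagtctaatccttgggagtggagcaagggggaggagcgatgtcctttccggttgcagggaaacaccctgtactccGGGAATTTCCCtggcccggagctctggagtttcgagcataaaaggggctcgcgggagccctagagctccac
Cxcl2: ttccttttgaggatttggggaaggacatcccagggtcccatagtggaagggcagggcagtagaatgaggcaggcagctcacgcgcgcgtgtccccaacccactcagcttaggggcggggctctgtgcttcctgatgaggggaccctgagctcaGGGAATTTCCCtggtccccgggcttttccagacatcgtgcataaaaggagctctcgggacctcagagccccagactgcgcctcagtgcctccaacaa
Cxcl10: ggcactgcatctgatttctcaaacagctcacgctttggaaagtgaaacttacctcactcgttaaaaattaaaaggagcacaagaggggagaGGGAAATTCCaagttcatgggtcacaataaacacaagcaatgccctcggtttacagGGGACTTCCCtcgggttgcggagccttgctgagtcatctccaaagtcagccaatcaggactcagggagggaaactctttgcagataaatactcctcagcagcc
Nfkbia: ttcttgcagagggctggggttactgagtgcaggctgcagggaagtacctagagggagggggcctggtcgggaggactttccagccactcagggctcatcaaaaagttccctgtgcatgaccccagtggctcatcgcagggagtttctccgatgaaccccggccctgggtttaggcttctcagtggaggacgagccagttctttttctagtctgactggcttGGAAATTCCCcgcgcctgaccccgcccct
Tnfaip3: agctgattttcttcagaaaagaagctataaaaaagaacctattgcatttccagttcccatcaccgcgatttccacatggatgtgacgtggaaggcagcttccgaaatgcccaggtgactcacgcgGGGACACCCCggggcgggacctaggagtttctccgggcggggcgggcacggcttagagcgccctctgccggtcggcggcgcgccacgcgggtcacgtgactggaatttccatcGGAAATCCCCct
The Il6 match GGGATTTTCC lay 44 to 35 bases before the start. Cxcl1 and Cxcl2, neighbouring genes for neutrophil-attracting chemokines, held the same run of 14 bases, GGGAATTTCCCTGG, beginning 71 and 97 bases before their starts, and in each the matches on both strands overlapped. Cxcl10 had 2 separate matches, GGGAAATTCC and GGGACTTCCC, and so did 1 of the 2 Tnfaip3 windows in the table, the one shown, with GGGACACCCC and, on the other strand, GGAAATCCCC. Cxcl10 was also the one member with the core of the interferon-stimulated response element, a motif of interferon-induced genes found in 2.98% of all promoters in the table. TGANTCA, the AP-1 motif, was in Il6, Cxcl10 and Tnfaip3 and in 6.75% of all promoters. The Il1b and Tnf windows held none of the 3 motifs, which says only that these letters were not in these 250 bases.

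A feature outside the promoters was shared more widely. Short-lived cytokine messages carry AU-rich elements, repeats of ATTTA in the 3′ untranslated region (UTR) through which the RNA is marked for decay. All 10 members had more ATTTA pentamers per kb of 3′ UTR than the median of 1.36 over 13228 tested genes with a 3′ UTR of at least 100 bases. Values ran from 2.7 per kb in Tnfaip3 to 11.8 per kb in Cxcl1, with 8.7 in Il1b, 9.0 in Csf3 and 10.5 in Tnf. The longer element TTATTTATT occurred in 5 of the 10 members, Tnf, Cxcl1, Cxcl2, Nfkbia and Tnfaip3, against 8.51% of these genes. For the members with the densest repeats and for Il1b and Csf3, whose changes with azoramide are described below, a stretch of 30 bases follows (GRCm38, 5′ to 3′ on the gene's strand, ATTTA in capitals). The stretches are at chr2:129364808-129364837 (Il1b, minus), chr17:35199679-35199708 (Tnf, minus), chr11:98702984-98703013 (Csf3, plus), chr5:90892602-90892631 (Cxcl1, plus) and chr5:90905327-90905356 (Cxcl2, plus).
Il1b: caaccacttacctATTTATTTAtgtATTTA
Tnf: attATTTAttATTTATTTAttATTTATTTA
Csf3: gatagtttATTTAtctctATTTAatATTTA
Cxcl1: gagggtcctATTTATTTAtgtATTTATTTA
Cxcl2: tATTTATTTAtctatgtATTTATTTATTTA

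The libraries held 16832800 to 19501813 counts each. Levels are given as CPM, the count scaled to library size with TMM factors. Differences are log2 fold changes with their standard error (SE), and every adjusted p is from edgeR's quasi-likelihood test with Benjamini-Hochberg adjustment over the 15093 genes, called below 0.05. Zzef1 itself stood at 97.2 ± 12.2 CPM (SD, n = 3) in control DMSO libraries and 81.5 ± 2.93 CPM (SD, n = 2) in those labelled knockout with DMSO, a difference that was not called (edgeR, adjusted p = 0.999). With azoramide the order was the other way, 66.6 ± 2.02 CPM in control and 72.8 ± 4.53 CPM in labelled knockout (SD, n = 3 each; edgeR, adjusted p = 0.968), and in control Zzef1 fell by 0.55 on the log2 scale with azoramide (edgeR, adjusted p = 3.46e-05). Counts over the whole gene do not check a deletion of part of it in 1 cell type, so the genotype is given as labelled.

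The members differed widely in level. Per kb of the longest protein-coding transcript and over all 11 libraries, Nfkbia, which encodes the inhibitor IκBα, was highest at 20.0 ± 3.66 CPM per kb (SD), above 79.9% of the genes tested. Cxcl1 followed at 6.74 ± 2.45 CPM per kb, then Ccl2 at 3.95, Il1b at 3.64, Il6 at 3.53, Cxcl10 at 3.17, Tnfaip3 at 1.67, Csf3 at 1.42 and Cxcl2 at 0.518 CPM per kb. Tnf was lowest at 0.208 ± 0.127 CPM per kb, from 2 to 13 counts in each library, and was above 5.6% of the genes tested. Between neighbours in this order, mean ± SD did not overlap for Nfkbia and Cxcl1 and overlapped for all other pairs. In bulk islet RNA, a change in the number of cells of a type and in the RNA per cell cannot be told apart.

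**Figure D1:**
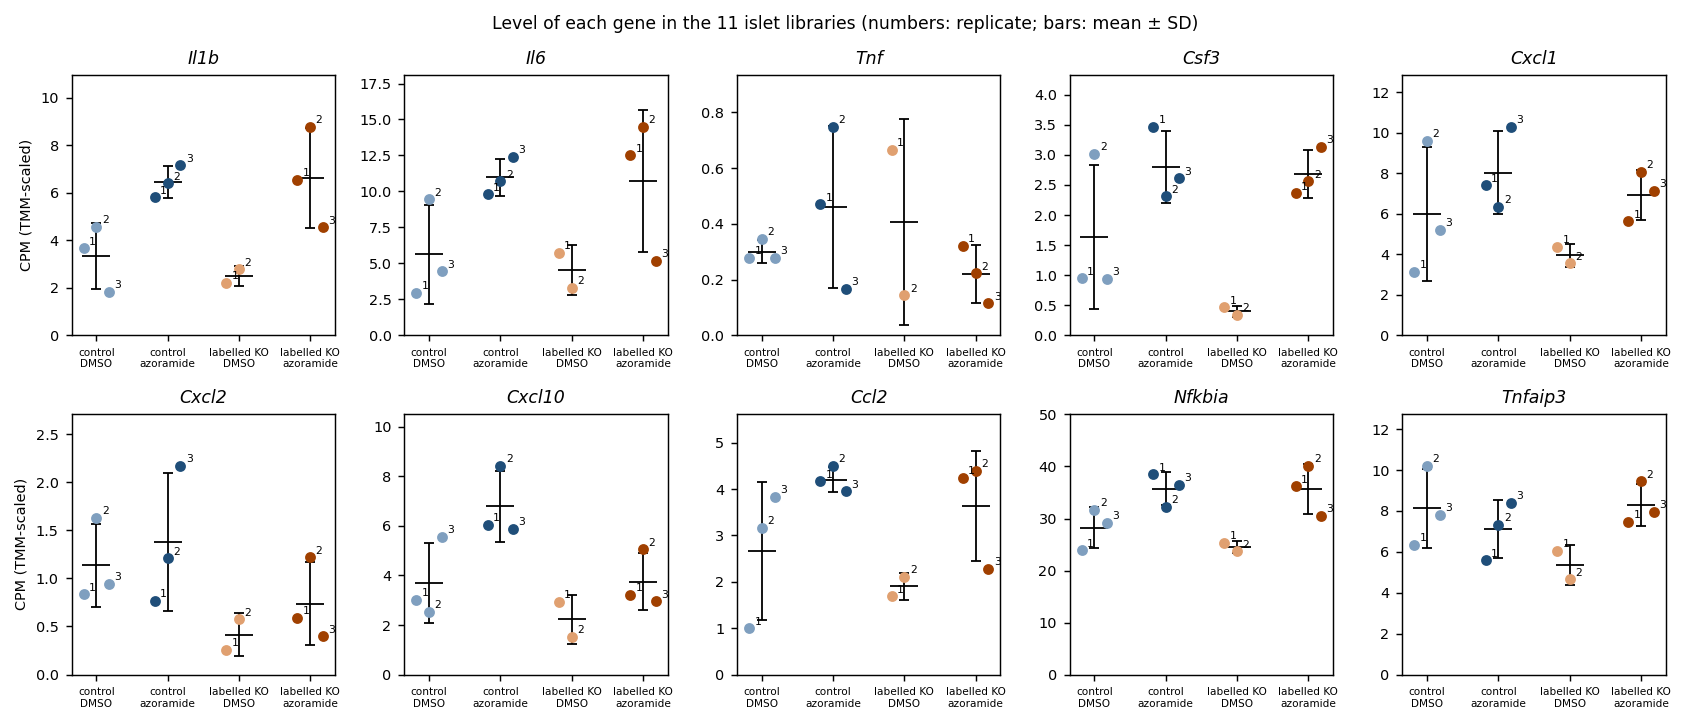
Level of each of the 10 genes in CPM (linear axis from 0) in each of the 11 libraries, with the replicate number beside each point and bars for the group mean ± SD. Il1b, Il6, Ccl2 and Nfkbia each have 5 of 6 azoramide libraries above all 5 DMSO libraries (share of all genes not counted). Csf3 is lowest in both DMSO libraries labelled knockout.

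With azoramide some members were called as rising in each genotype and none as falling. The count in control depended on the setting. It was 0 without control azoramide 3 and 0 with the length and GC offset described below. In control islets 3 of the 10 members rose, Il1b, Cxcl10 and Nfkbia, while 19.3% of all genes tested rose and 19.8% fell. In the libraries labelled knockout 4 of 10 rose, Csf3, Il1b, Nfkbia and Tnfaip3, with 20.0% of all genes rising and 19.8% falling. Averaged over the genotypes 6 of 10 rose, Csf3, Il1b, Nfkbia, Cxcl10, Ccl2 and Il6, with 25.8% of all genes rising and 26.9% falling. The average uses the same libraries as both genotype-specific comparisons and is no separate evidence. The median log2 fold change of the 10 members was 0.62 in control, 0.81 in labelled knockout and 0.70 on average, beside medians of -0.02, 0.00 and -0.01 over all genes tested.

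Among the cytokines, Il1b, which encodes interleukin-1β, rose in both genotypes. Its level was 3.67, 4.56 and 1.83 CPM in the control DMSO libraries and 5.81, 6.40 and 7.17 CPM with azoramide. In the libraries labelled knockout it was 2.21 and 2.78 CPM with DMSO and 6.54, 8.79 and 4.55 CPM with azoramide. Treated and untreated libraries did not overlap in either genotype. The rise was 1.92-fold in control (log2 0.94, SE 0.29, adjusted p = 0.0169) and 2.65-fold in labelled knockout (log2 1.41, SE 0.34, adjusted p = 0.00346). The control call rested on single libraries: it was 0.86 (adjusted p = 0.0648) without control azoramide 3 and 0.65 (adjusted p = 0.0532) without control DMSO 3. The call in labelled knockout ended without labelled knockout DMSO 1, at 1.25 (adjusted p = 0.0512). An antisense gene, Il1bos, overlaps its exons with 110 counts in all 11 libraries together. Since strand use in the counting is not given in the sources used here, reads of the pair cannot be told apart.

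Csf3 encodes granulocyte colony-stimulating factor, which drives neutrophil production. It had 0.946, 3.02 and 0.943 CPM in control DMSO libraries and 3.47, 2.31 and 2.61 CPM with azoramide in control. With labelled knockout it had 0.462 and 0.336 CPM with DMSO, from 9 and 7 counts, and 2.36, 2.56 and 3.13 CPM with azoramide. The azoramide libraries of both genotypes lay close together, while the DMSO libraries spread from 0.336 to 3.02 CPM. In labelled knockout Csf3 rose 6.65-fold (log2 2.73, SE 0.53, adjusted p = 0.000522), and this call held in all 22 settings run, with values of 2.52 to 2.97. In control the difference of 0.75 (SE 0.38, adjusted p = 0.134) was not called. It became 1.56 (adjusted p = 0.00136) when control DMSO 2, the one high DMSO library, was left out.

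Il6, the gene of interleukin-6, a cytokine of the acute phase, was at 2.95, 9.46 and 4.44 CPM in control DMSO libraries and at 9.81, 10.7 and 12.4 CPM with azoramide. It was at 5.75 and 3.31 CPM in labelled knockout with DMSO and at 12.5, 14.5 and 5.18 CPM with azoramide. One library in each genotype set the spread, control DMSO 2 on the high side and labelled knockout azoramide 3 on the low side. Il6 was not called in control (log2 0.95, SE 0.50, adjusted p = 0.178) or in labelled knockout (log2 1.25, SE 0.58, adjusted p = 0.13). Leaving out control DMSO 2 gave 1.57 in control (adjusted p = 0.0363), and leaving out labelled knockout azoramide 3 gave 1.58 in labelled knockout (adjusted p = 0.0333). On average Il6 rose 2.15-fold (log2 1.10, SE 0.38, adjusted p = 0.042), a call that held in 2 of 11 fits with 1 library left out and otherwise had values of 0.93 to 1.32 (adjusted p = 0.0597 to 0.15). Those 2 were the fits without control DMSO 2 and without labelled knockout azoramide 3.

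Tnf, the gene of tumour necrosis factor, gave no measurable response at this depth. It had 0.278, 0.347 and 0.277 CPM in control with DMSO and 0.470, 0.749 and 0.167 CPM with azoramide. In labelled knockout it had 0.667 and 0.144 CPM with DMSO and 0.322, 0.222 and 0.114 CPM with azoramide. The groups overlapped throughout, and the average difference was -0.12 (SE 0.54, edgeR, adjusted p = 0.863), with a 95% interval from -1.26 to 1.02.

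Of the chemokines, Cxcl10, an interferon-induced attractant of T cells, stood at 3.01, 2.53 and 5.55 CPM in control with DMSO and at 6.05, 8.42 and 5.89 CPM with azoramide. In labelled knockout it stood at 2.93 and 1.53 CPM with DMSO and at 3.22, 5.06 and 2.96 CPM with azoramide. The treated libraries were above the untreated ones in each genotype, although the highest control DMSO library exceeded all 3 treated libraries labelled knockout. Cxcl10 rose 1.84-fold in control (log2 0.88, SE 0.31, adjusted p = 0.0362), was not called in labelled knockout (log2 0.75, SE 0.38, adjusted p = 0.132), and rose on average by 0.82 (SE 0.25, adjusted p = 0.0114). The control call ended when any 1 of 5 libraries was left out, with values of 0.96, 0.70 and 0.97 (adjusted p = 0.0532, 0.143 and 0.0523) without control azoramide 1, 2 and 3, and of 0.76 and 0.67 (adjusted p = 0.125 and 0.108) without control DMSO 1 and 2. The average call ended without labelled knockout DMSO 2, at 0.62 (adjusted p = 0.0739). Art3 overlaps Cxcl10 exons on the opposite strand, with 82 counts in all libraries.

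Ccl2 attracts monocytes. Its level was 1.0, 3.17 and 3.83 CPM in control with DMSO and 4.17, 4.50 and 3.95 CPM with azoramide, and in labelled knockout 1.69 and 2.11 CPM with DMSO and 4.24, 4.39 and 2.28 CPM with azoramide. Treated libraries lay above untreated ones in both genotypes by narrow margins, 3.83 against 3.95 CPM in control and 2.11 against 2.28 CPM in labelled knockout. Neither genotype alone was called (control 0.65, SE 0.37, adjusted p = 0.181; labelled knockout 0.93, SE 0.43, adjusted p = 0.0993). In labelled knockout it became 1.18 (adjusted p = 0.034) without labelled knockout azoramide 3. It was also called there without control DMSO 1 (adjusted p = 0.0218), which is in neither group. The average rise was 1.73-fold (log2 0.79, SE 0.28, adjusted p = 0.0281), and it lost its call without control azoramide 2, or without any of labelled knockout azoramide 1 and 2 and labelled knockout DMSO 1 and 2, with values of 0.71 to 0.88 (adjusted p = 0.0589 to 0.111).

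Cxcl1 and Cxcl2, ligands of the neutrophil receptor CXCR2, were not called with azoramide in either genotype. Cxcl1 was at 3.12, 9.61 and 5.21 CPM in control with DMSO and at 7.40, 6.34 and 10.3 CPM with azoramide, and in labelled knockout at 4.36 and 3.55 CPM with DMSO and at 5.63, 8.06 and 7.12 CPM with azoramide. Control DMSO 2 was the second highest of all 11 libraries, and its removal moved the control difference from 0.41 (adjusted p = 0.382) to 0.94 (adjusted p = 0.00526) and the average from 0.61 (adjusted p = 0.0741) to 0.88 (adjusted p = 0.000313). In labelled knockout the difference was 0.81 (SE 0.40, adjusted p = 0.138). It was called without control DMSO 1 or 2 (adjusted p = 0.034 and 0.013), libraries of other groups that enter that fit through the shared spread. Cxcl2 ranged from 0.764 to 2.17 CPM in control with azoramide against 0.835 to 1.63 CPM with DMSO, and from 0.399 to 1.22 CPM against 0.257 to 0.575 CPM in labelled knockout, with 5 to 39 counts per library. Its average difference was 0.54 (SE 0.41, edgeR, adjusted p = 0.277). The Cxcl1 transcript shares no run of 31 bases with Cxcl2 or with their relative Cxcl3, whereas 4.4% of such runs of Cxcl2 also occur in Cxcl3, so that Cxcl2 counts are less certain.

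Both feedback inhibitors limit NF-kB signalling, Nfkbia by binding the factor and Tnfaip3 (A20) by editing ubiquitin chains on upstream adaptors. Nfkbia was at 23.9, 31.7 and 29.2 CPM in control with DMSO and at 38.5, 32.3 and 36.5 CPM with azoramide, and in labelled knockout at 25.3 and 23.7 CPM with DMSO and at 36.2, 40.1 and 30.5 CPM with azoramide. No treated library fell below an untreated one of its genotype. The rise was small, 1.26-fold in control (log2 0.34, SE 0.11, adjusted p = 0.0269) and 1.45-fold in labelled knockout (log2 0.54, SE 0.13, adjusted p = 0.0032). The control value was 0.29, 0.32 and 0.23 (adjusted p = 0.0977, 0.0798 and 0.139) without control azoramide 1, control azoramide 3 and control DMSO 1. Tnfaip3 was at 6.35, 10.2 and 7.82 CPM in control with DMSO and at 5.58, 7.32 and 8.39 CPM with azoramide, and these overlapped (log2 -0.20, SE 0.20, adjusted p = 0.462). In labelled knockout it was at 6.06 and 4.65 CPM with DMSO and at 7.46, 9.45 and 7.97 CPM with azoramide, a 1.55-fold rise (log2 0.63, SE 0.22, adjusted p = 0.0323). That rise became 0.53 (adjusted p = 0.111) without labelled knockout azoramide 2 and 0.45 (adjusted p = 0.27) without labelled knockout DMSO 2.

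**Figure D2:**
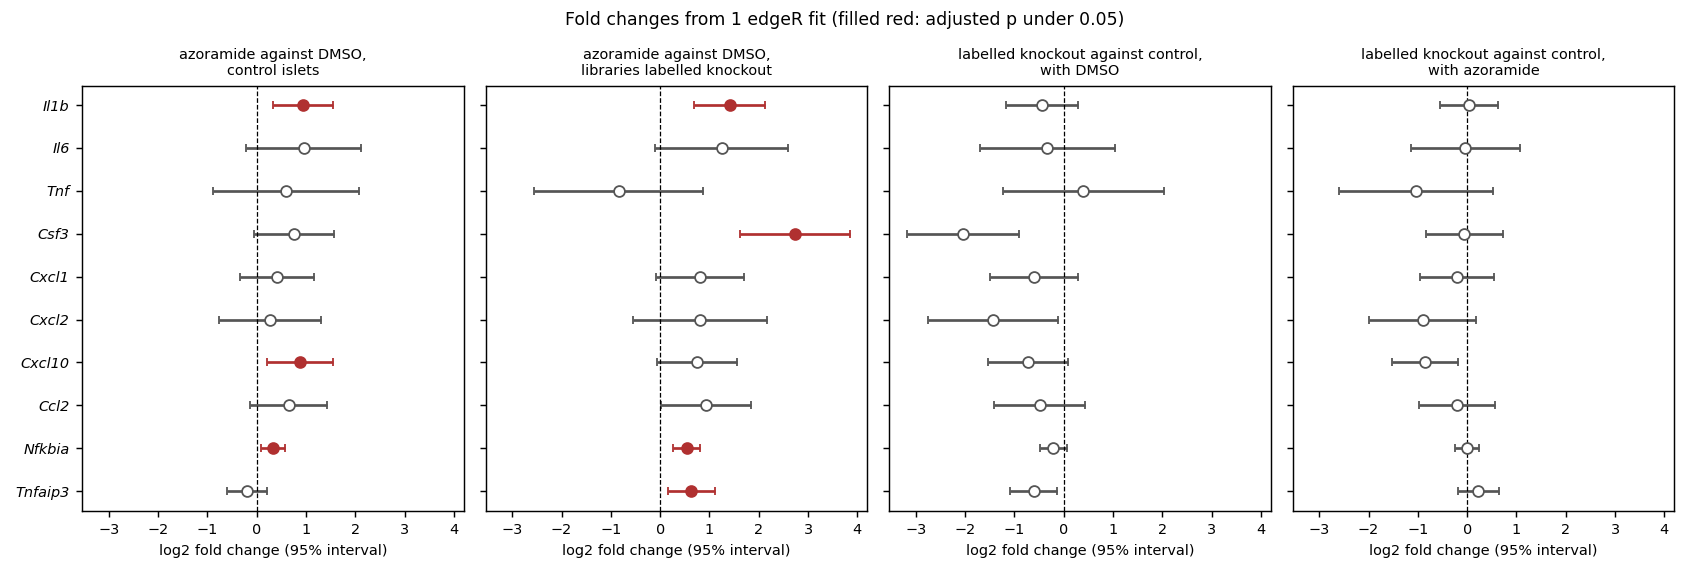
Log2 fold changes of the 10 genes with 95% intervals from 1 edgeR fit, for azoramide against DMSO in each genotype and for labelled knockout against control under each treatment, with called values filled. Calls stand in both azoramide panels (3 and 4 genes) and in neither genotype panel.

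Without a test, the libraries can be read by treatment alone. In 4 members, Il1b, Il6, Ccl2 and Nfkbia, 5 of the 6 azoramide libraries lay above all 5 DMSO libraries. The share of all genes that did so was not counted, so this does not set the members apart. No member separated the treatments fully, while 17.5% of all genes tested did so with azoramide higher. Within genotype, treated libraries were all above untreated ones for 5 of 10 members in control (23.8% of all genes) and 7 of 10 in labelled knockout (30.2% of all genes).

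How the libraries were scaled bears on the azoramide counts. Scaling to total counts alone moved the median over all genes to -0.19 in control, -0.16 in labelled knockout and -0.17 on average, and rising genes went, as a share of called genes, from 49.3% to 24.8%, from 50.2% to 29.1% and from 48.9% to 28.5%. Members called then numbered 1 in control (Il1b), 3 in labelled knockout and 4 on average (Csf3, Il1b, Nfkbia and Cxcl10). Of all 15093 genes tested, 1628, 1866 and 2376 rose in these comparisons. Nfkbia was then at 0.17 in control (adjusted p = 0.252), against the shifted median of -0.19. An offset for GC content and exonic length, taken over all exons of a gene, was also used. With it the medians of the members were lower, 0.17 in control, 0.41 in labelled knockout and 0.26 on average. Over all genes the medians were then -0.03, -0.02 and -0.02. Members above 0 in control went from 9 to 6 of 10, and no member was called there. Il1b was then at 0.53 (adjusted p = 0.171) and Nfkbia at 0.05 (adjusted p = 0.795), and Csf3 and Il1b were called on average, at 1.55 and 0.75. Of all 15093 genes, 1976 rose with this offset in control and 2947 on average.

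Between genotypes no member was called under either treatment. With DMSO, 9 of the 10 members were lower in labelled knockout (51.0% of all genes tested), with a median difference of -0.55 against 0.00 over all genes. By edgeR 0 of the 15093 genes were called (0.0%) and 531 (3.52%) had an unadjusted p under 0.05, and the DESeq2 Wald test called 3 genes, none of them a member. Csf3 (-2.04, SE 0.54), Cxcl2 (-1.43, SE 0.63) and Tnfaip3 (-0.61, SE 0.22) had unadjusted p-values of 0.00142, 0.0334 and 0.0148 by edgeR, with adjusted p = 0.999 for each. Unadjusted p-values under 0.05 with a lower value were found in 1.93% of all genes. These 3 were also the members whose labelled knockout libraries all lay below the control libraries, as did 9.57% of all genes. The median of the members moved to -0.24 without control DMSO 2 and to -0.80 without control DMSO 1, and ran from -0.79 to -0.45 on leaving out either labelled knockout DMSO library. Csf3 itself was at -1.24 without control DMSO 2. With azoramide 8 of 10 members were lower (49.8% of all genes) and their median difference was -0.13. This count was 5 of 10 without control azoramide 3 or without labelled knockout azoramide 3, and the median ran from -0.32 to -0.05 with 1 library left out. With azoramide 0 genes were called by edgeR (0.0%; 754 at an unadjusted p under 0.05, and 2 by DESeq2). Cxcl10, at -0.86 (SE 0.31), had an unadjusted p of 0.0155 and an adjusted p of 0.958 by edgeR's quasi-likelihood test, and no other member was under 0.05 before adjustment, beside 2.52% of all genes lower at that level. Its labelled knockout libraries, at 2.96 to 5.06 CPM, all lay below the control libraries, at 5.89 to 8.42 CPM, as did 5.58% of all genes.

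The direct test of whether azoramide acted differently in the 2 genotypes, the interaction, called 0 genes by edgeR (0.0%; 563, or 3.73%, at an unadjusted p under 0.05) and 0 by DESeq2. Csf3 had the largest member value, 1.98 (SE 0.66, unadjusted p = 0.00755, adjusted p = 0.999), followed in p by Tnfaip3 at 0.83 (SE 0.30, unadjusted p = 0.0125, adjusted p = 0.999). Both values rest on the DMSO groups also used above, and without control DMSO 2 that of Csf3 was 1.18. For Csf3, the control azoramide mean of 2.79 ± 0.601 CPM (SD, n = 3) and the labelled knockout azoramide mean of 2.68 ± 0.40 CPM (SD, n = 3) lay together. The DMSO means were 1.64 ± 1.20 (n = 3) and 0.399 ± 0.0894 (n = 2), whose mean ± SD ranges overlapped, with the control mean raised by control DMSO 2 at 3.02 CPM against 0.946 and 0.943 CPM in the others. The difference in Il1b response was 0.47 (95% interval -0.47 to 1.40), which leaves the 2 genotypes not distinguishable for this gene at this depth.

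Much of the spread within groups was shared by the members. Control DMSO 2 was the highest library of its group in 8 of 10 members and control DMSO 1 the lowest in 6. Labelled knockout azoramide 2 was the highest of its group in 8 and labelled knockout azoramide 3 the lowest in 7. After the group means were removed, Il6 followed the mean of the other members most closely (Pearson r = 0.94 over 11 libraries), then Nfkbia at 0.79, Tnfaip3 at 0.75 and Cxcl1 at 0.73. Cxcl10 at 0.08, Tnf at 0.15 and Il1b at 0.33 followed it least. These are descriptions over libraries that share treatment, depth and tissue makeup.

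The same libraries differed in acinar cells, the enzyme-producing exocrine cells that can remain in islet preparations. The summed level of 11 acinar markers, none of them at 0, was 820 to 4874 CPM in control with DMSO, 1590 to 4234 CPM in control with azoramide, 512 to 2169 CPM in labelled knockout with DMSO and 958 to 5224 CPM in labelled knockout with azoramide. Its highest library was the one with the highest mean of the members in every group except control with azoramide, and its lowest was the one with the lowest mean of the members in every group except control with DMSO. None of the 11 acinar markers was called with azoramide on average, but all 11 were above 0. Their median log2 fold change was 0.76 on average, beside 0.70 for the members. It was 0.43 in control and 1.09 in labelled knockout, beside 0.62 and 0.81. With the mean log2 CPM of the acinar markers as a covariate, chosen after seeing the data, 4 members were called on average, Csf3 at 1.61, Il1b at 0.92, Il6 at 0.68 and Nfkbia at 0.37. Cxcl10 (0.73, adjusted p = 0.0512) and Ccl2 (0.67, adjusted p = 0.105) then lost their average calls, Cxcl10 its call in control (0.80, adjusted p = 0.0837) and Tnfaip3 its call in labelled knockout (0.43, adjusted p = 0.104), while Il6 gained one in control (0.72, adjusted p = 0.0136). The share of all genes called with this covariate is not given here, so the number of called members does not set them apart.

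**Figure D3:**
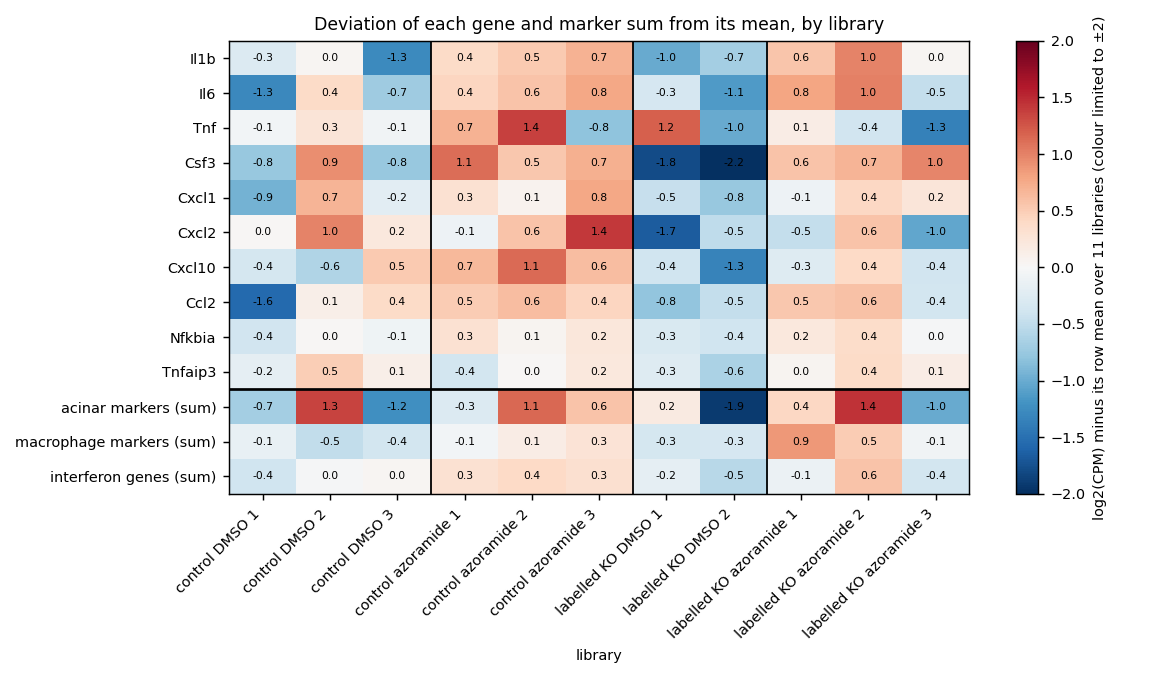
Heat map of log2 CPM minus its mean over the 11 libraries for each of the 10 genes and for the summed acinar, macrophage and interferon genes, with libraries in columns by group. Control DMSO 2 and labelled knockout azoramide 2, the columns with the most high members of their groups, also have the highest acinar sums of their groups (4874 and 5224 CPM).

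Part of the macrophage markers rose with the treatment. The sum of 14 of them was 53.9 to 68.5 CPM in control with DMSO and 73.3 to 91.9 CPM with azoramide, and 59.8 to 60.2 CPM against 72.5 to 139 CPM in labelled knockout. On average 6 of the 14 rose and none fell, beside 25.8% and 26.9% of all genes, led by Cd68, a lysosomal protein of macrophages, at 1.25 (SE 0.15, adjusted p = 5.71e-05). Cd14 (0.93), Tyrobp (0.76), Fcer1g (0.65), Ptprc (0.50) and C1qa (0.28) rose as well, with adjusted p = 0.00106, 0.011, 0.0305, 0.0208 and 0.0376 by edgeR. The defining markers Adgre1 (-0.15, adjusted p = 0.674), Csf1r (0.07, adjusted p = 0.841) and Lyz2 (0.73, adjusted p = 0.184) were not called. On average 10 of the 14 were above 0, with a median of 0.39. In labelled knockout 5 of the 14 rose (20.0% of all genes) and the median was 0.66. Between genotypes with azoramide, all 14 were above 0 in labelled knockout (50.2% of all genes), with a median of 0.65 and no call. In control 2 of the 14 rose (19.3% of all genes) and the median was 0.18. Cd68 alone went from a mean of 16.2 CPM to 33.5 CPM in control, a large part of the change in the sum. With the mean log2 CPM of the macrophage markers as a covariate, also chosen after seeing the data, Csf3 (1.88), Il1b (1.09), Cxcl10 (0.76) and Nfkbia (0.42) were called on average and Il6 (0.92, adjusted p = 0.104) and Ccl2 (0.68, adjusted p = 0.0723) were not. For this covariate, too, the share of all genes called is not given here. Of 9 neutrophil markers 5 were at 0 in all libraries, including Ly6g, and 2 were tested. S100a9, a calcium-binding protein abundant in neutrophils and monocytes, with 524 counts in all, rose on average (0.74, SE 0.26, adjusted p = 0.0213) and in labelled knockout (1.04, adjusted p = 0.0415), and its partner S100a8, with 80 counts, had the same average value of 0.74 without a call (adjusted p = 0.275). The T cell marker Cd3e had 1 count in all libraries.

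Markers of the other cell types moved in both directions with azoramide on average, and their part in the members' changes was not tested. Of 10 beta cell markers 4 rose and 6 fell, with the insulin gene Ins1 at -0.48 (adjusted p = 1.03e-05), and of 9 markers of other islet endocrine cells 6 rose and none fell. Of 10 endothelial markers 1 rose and 5 fell, of 9 tested fibroblast and stellate markers 2 rose and 3 fell, and of 10 tested ductal markers 4 rose and 1 fell. Pecam1 (-0.13, adjusted p = 0.0772), an endothelial adhesion protein, and the duct keratin Krt19 (0.90, adjusted p = 0.27) were not called, and the fibroblast collagen gene Col1a1 fell by 1.33 on the log2 scale (adjusted p = 0.00382).

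The upstream machinery was read in the average azoramide comparison, in which 25.8% of all genes rose and 26.9% fell. Of 5 genes for NF-kB subunits none rose and 1 fell, Rela, the p65 subunit, which was 38.2 ± 2.71 CPM (SD, n = 3) in control with DMSO and 28.6 ± 1.73 CPM (n = 3) with azoramide, an average of -0.40 (SE 0.06, adjusted p = 3.25e-05). Of 17 IκB kinases and adaptors 2 rose and 7 fell. Those that fell included Ikbkb, a catalytic kinase subunit (-0.34, adjusted p = 1.02e-05), the receptor Nod1 (-0.61, adjusted p = 5e-05), Irak1 (-0.26, adjusted p = 0.000104) and Tab2 (-0.24, adjusted p = 0.000523). The medians of the subunit and kinase lists were 0.02 and -0.15. Of 15 other feedback inhibitors 4 rose and 3 fell. Il1rn, whose product blocks the interleukin-1 receptor, rose with Il1b from 2.04 ± 0.722 to 3.80 ± 0.796 CPM in control and from 1.72 ± 0.258 to 4.73 ± 0.957 CPM in labelled knockout, 1.18 on average (SE 0.21, adjusted p = 0.000157). Traf3, an inhibitor of the noncanonical pathway, fell by 0.63 on the log2 scale (SE 0.06, adjusted p = 8.57e-08), and Otud7b and Tnip1 by 0.25 and 0.27 (adjusted p = 0.00191 and 0.00196).

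Receptors for the members' products, listed together with 3 Toll-like receptors, were partly below the filter. Of 18 listed, 13 were tested, and on average 4 rose, of which 3 were the Toll-like receptors, and 2 fell. Il6ra, the interleukin-6 receptor chain, was 107 ± 9.19 CPM in control with DMSO and 55.7 ± 4.22 with azoramide, 113 ± 0.524 and 53.7 ± 7.18 CPM in labelled knockout, and fell by 1.01 on the log2 scale (SE 0.07, adjusted p = 7.45e-09) while Il6 itself rose on average. The receptors of the neutrophil chemokines and of Cxcl10 were near 0, with 0 counts of Cxcr1, 2 of Cxcr2 and 5 of Cxcr3 in all libraries, and Csf3r, the receptor of Csf3, had 54. The Toll-like receptors Tlr2 (0.31) and Tlr3 (0.28), sensors of microbial products and not of the members' products, rose on average (adjusted p = 0.000756 and 0.00315), as did Ackr1, a decoy receptor of chemokines, at 2.31 (adjusted p = 0.0112) from 57 counts in all.

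Of 34 other NF-kB targets listed, 26 were tested, 8 rose and 1 fell on average, and their median was 0.41. The share that rose was near the 25.8% of all genes. The costimulatory receptor Cd40 rose from 6.01 ± 0.855 to 12.4 ± 1.14 CPM in control and from 5.76 ± 0.418 to 10.9 ± 2.46 CPM in labelled knockout (average 0.98, SE 0.13, adjusted p = 6.09e-06). The chemokine Ccl5 (0.97), the apoptosis inhibitor Birc3 (0.63) and the mitochondrial superoxide dismutase Sod2 (0.40) rose as well, with adjusted p = 0.000215, 5.15e-05 and 4.03e-05. Among 14 interferon genes 7 rose and 1 fell, with a median of 0.65, and Ifit1 (1.10), Isg15 (0.99), Ifi44 (0.84) and Usp18 (0.73) were those of smallest p. Cxcl10 is itself an interferon-induced gene and its value of 0.82 stands within this range. Of 11 immediate early genes 4 rose and none fell, led by Egr1 at 1.29 (SE 0.21, adjusted p = 0.00108), with Fos, a subunit of AP-1, at 0.84 (adjusted p = 0.0318), Ier2 at 0.43 (adjusted p = 0.0392) and Jun at 0.22 (adjusted p = 0.0386).

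The genes most like the members were sought among 11618 genes by the Pearson r of their log2 CPM with the mean of the 10 members over 11 libraries, group means removed. Ikbke, an IκB kinase-related kinase, came first at r = 0.988, followed by Procr at 0.972, Ifi27 at 0.970, Vrk3 at 0.962, Puf60 at 0.961 and Isg20 at 0.953. Ikbke was 13.8 ± 3.79 CPM in control with DMSO and 13.6 ± 0.804 CPM with azoramide and was not called on average (0.01, adjusted p = 0.956). It followed the members within groups without following their difference between treatments. Ifi27 and Isg20, both interferon-induced, did both, rising on average by 0.92 and 0.67 (adjusted p = 4.93e-05 and 4.92e-07).

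**Figure D4:**
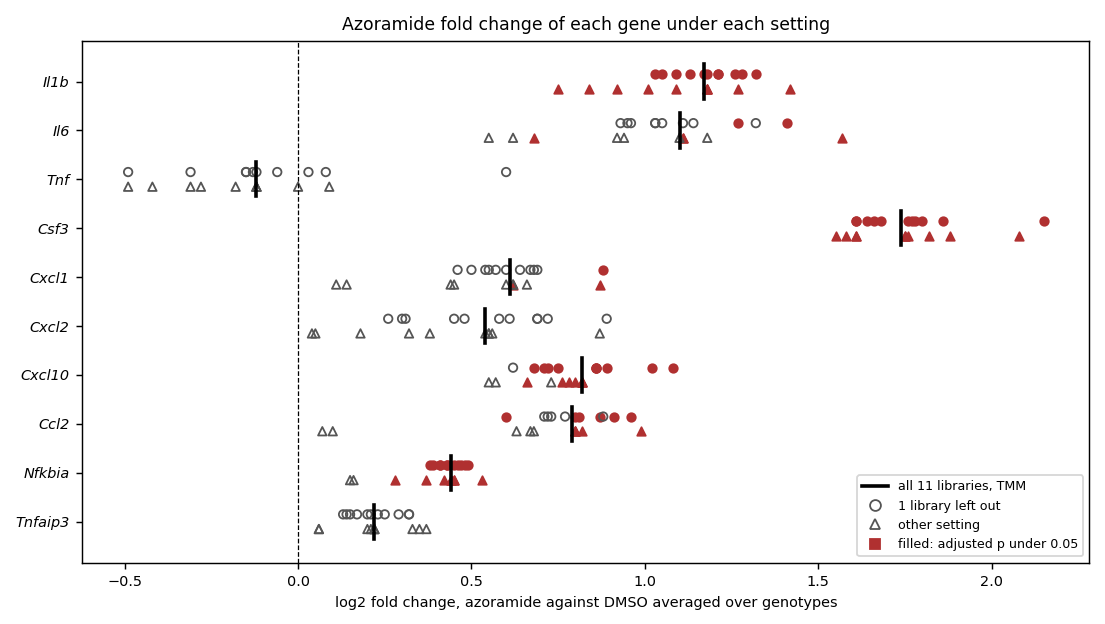
Log2 fold change of azoramide against DMSO averaged over genotypes for each of the 10 genes under every setting run, with circles for fits with 1 library left out, triangles for other settings, filled where called and a bar for the reported value. Csf3 (1.55 to 2.15) and Il1b (0.75 to 1.42) are filled throughout, whereas Tnf (-0.49 to 0.60) lies on both sides of 0.

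Across the 21 settings run for the average comparison, Csf3 and Il1b were called in all 21, Nfkbia in 19, Cxcl10 in 17, Ccl2 in 11 and Il6 in 6. Cxcl1, not called with all 11 libraries, was called in 3. Each gene kept its sign in all of these settings except Tnf.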

How the data were processed

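Raw, unnormalized read counts were deposited by the authors in 1 table of 32285 genes and 11 libraries. STAR 2.7.2a, the build mm10 and DESeq2 are named in the submitters' processing notes, while for the counting tool, its annotation and its use of strand the sources used here give nothing. From the counts, edgeR 4.0.16 (R 4.3.3) fitted 1 quasi-likelihood model of 4 groups with robust dispersion, TMM scaling and its filter for low counts by group, and 6 contrasts were tested with Benjamini-Hochberg adjustment at 0.05. Depth was 16832800 to 19501813 counts per library. Transcript length, exonic length, GC content, untranslated regions and overlaps were taken from GENCODE M21 (GRCm38), and promoters from RefSeq. Scripts were tested on simulated data with 200 changed genes.

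The members and lists were chosen with earlier results of these data known. All 10 members are named whatever their result, of each other list of NF-kB or interferon genes those past the threshold in the average azoramide comparison up to 4 of smallest p, and of the cell type lists only defining markers. The 6 genes most like the members were named by their correlation. Alternatives were DESeq2 1.42.0 (size factors and Wald test), plain library totals, no filter, fewer groups, the replicate number as a block, a length and GC offset, and leaving out libraries. After seeing the data, acinar and macrophage marker levels were added as covariates. Mx1 was not analysed here.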

Additional observations from a re-analysis of the deposited data

How the results depend on the processing

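Few libraries and low counts limited single calls, and Tnf was measured on 2 to 13 counts a library. Over all alternatives, values of single members kept direction and side of the threshold in 1156 instances, lost a call in 60, gained one in 21 and changed sign in 53, each time for a value that was not called. For each change below the cause was not tested. The length and GC offset called 0 members and 3594 genes for azoramide in control, 3845 genes in labelled knockout and 2 members on average. It turned Cxcl1, Cxcl2 and Ccl2 in control to -0.04, -0.19 and -0.02, and Csf3 and Nfkbia between genotypes with azoramide to 0.01 and 0.04. Plain totals left 1 member called in control and turned Il6 and Nfkbia between genotypes with azoramide to 0.01 and 0.04. DESeq2 called 3 genes between genotypes with DMSO and 2 with azoramide, and dropping the filter called 2 with DMSO. The acinar covariate turned Il6 between genotypes with DMSO to 0.05, Nfkbia with azoramide to 0.00 and the Il6 interaction to -0.09, and the macrophage covariate turned Il1b and Csf3 between genotypes with azoramide to -0.12 and 0.20. The count columns of a genotype carry numbers shared between the treatments, and whether 1 pool of islets was split between them was not established. Deviations of same-numbered treated and untreated libraries had r of 0.121, 0.180 and 0.023 in control and of 0.081 and -0.311 in labelled knockout. Control DMSO 3 correlated better with another number, and the replicate numbers were not taken as pairs. The replicate block joined same numbers across the genotypes, so it does not test pairing within a genotype. With the replicate block Cxcl10 in control (0.89, adjusted p = 0.0671) and Il6 on average (1.18, adjusted p = 0.0555) were not called, 1 gene was called between genotypes with DMSO and Il1b with azoramide turned to -0.03. With the replicate block and the offset together, 0 members and 3673 genes were called in control, 2 members on average and 1 gene between genotypes with DMSO, and Cxcl2 in control, Csf3 and Nfkbia between genotypes with azoramide were -0.18, 0.00 and 0.04. Without control DMSO 2 and labelled knockout azoramide 3 together, 5 members were called in control and 7 in labelled knockout, and 2, 84 and 6 genes between genotypes with DMSO, with azoramide and for the interaction. Tnfaip3 in control became 0.01, Il6 between genotypes with DMSO 0.29, Il6, Ccl2 and Nfkbia with azoramide 0.29, 0.04 and 0.09, the interactions of Cxcl1 and Cxcl10 -0.15 and 0.23, and Tnf on average 0.09. On leaving out each of the 11 libraries in turn, 0 to 5 members were called in control, 3 to 6 in labelled knockout and 3 to 7 on average, and 0 to 3 genes between genotypes with either treatment and 0 to 1 for the interaction. For azoramide many genes other than the members were called. With all 11 libraries 5893 of the 15093 genes were called in control, 6006 in labelled knockout and 7943 on average. The azoramide counts of members with libraries left out therefore do not set the members apart. Values of genes that changed sign over the fits with 1 library left out (10 for Tnf) follow. For azoramide in control they ran from -0.21 to 0.64 (Cxcl2) and -0.35 to 0.00 (Tnfaip3). Tnf ran from -1.57 to 0.59 in labelled knockout and -0.49 to 0.60 on average. Between genotypes with DMSO the ranges were -0.78 to 0.29 (Il6) and -1.04 to 1.13 (Tnf). With azoramide they were -0.22 to 0.24 (Il1b), -0.31 to 0.30 (Il6), -0.18 to 0.12 (Csf3), -0.35 to 0.01 (Cxcl1), -0.36 to 0.04 (Ccl2) and -0.10 to 0.09 (Nfkbia). For the interaction they were -0.32 to 0.74 (Il6), -0.13 to 0.70 (Cxcl1), -0.03 to 1.22 (Cxcl2), -0.54 to 0.41 (Cxcl10) and -0.06 to 0.67 (Ccl2).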
